A study of Homo sapiens with 4 samples.

Results

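The 42 genes described here encode the machinery of G2 and mitosis, from the kinase that starts mitosis to the proteins that pull chromosomes apart. They were taken by symbol from a list of CDK1 and its cyclins, spindle checkpoint, kinetochore, kinesin and chromosome condensation genes. All 42 were present among the 27800 gene symbols of the expression table, and all 42 had a mean of at least 1 TPM (a share of a library's transcripts, corrected for their length). The cells were MOLM-13, an established human line of acute myeloid leukaemia with the fusion gene KMT2A-MLLT3, also called MLL-AF9. RNA came from cells infected with lentivirus carrying CRISPR-Cas9 and either a guide against KAT6A (sgKAT6A, 2 libraries) or the vector called EV (2 libraries). All 4 libraries therefore share the cell line, the lentiviral delivery and the Cas9 system. The sources used here do not give the content of EV, the guide, the time after infection or whether the cells were a pool or a clone. Nor do the labels say that the libraries of a group came from separate cultures, so every p-value measures only the spread between these libraries.

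Entry into mitosis is driven by CDK1 bound to cyclin A or cyclin B, whose activity is held back by the kinase WEE1 and released by the CDC25 phosphatases. Once the nuclear envelope is gone, kinetochores attach chromosomes to the spindle, and the spindle checkpoint holds back the anaphase-promoting complex until every chromosome is attached. Most of these genes are transcribed late in the cell cycle, so their level in a bulk sample reflects both how many cells are in G2 and mitosis and how much RNA each cell makes. A bulk library cannot tell these apart. KAT6A (MOZ), the targeted gene, is a histone acetyltransferase.

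Late cell cycle promoters often carry a cell cycle genes homology region (CHR, TTTGAA or TTCGAA), to which the MuvB core of the DREAM and MYB-MuvB complexes binds, and CCAAT boxes, to which NF-Y binds. Both motifs were searched on both strands from 250 bases before to 50 bases after each start in RefSeq promoters of GRCh38.p14, where TTCGAA, which reads the same on both strands, counts once and a CHR can share a base with a CCAAT box. An entry was found for 34 of the 42 genes, and AURKA, BUB3, TTK, BIRC5, FOXM1, UBE2C, TPX2 and WEE1 had none. A CHR was present in 25 of the 34 (73.5%), against 15.4% of 8952 protein-coding genes expressed in these cells and 16.4% of all 35116 windows. CCAAT was present in 26 of the 34 (76.5%), against 43.6% of the expressed protein-coding genes and 34.6% of all windows. Both were found in 19 of the 34 (55.9%), against 6.55% of the expressed protein-coding genes. Genes with several starts were counted if any window held the motif. The 120 bases before the start are printed here for 1 gene of each functional group, the one with the smallest p in the comparison of sgKAT6A with EV among those whose CHR lies wholly in that stretch. Capitals mark each CHR and each CCAAT box, which read TTCAAA and ATTGG where they lie on the opposite strand. All 5 genes are on the plus strand, and each sequence ends at the base before the start.
PLK1: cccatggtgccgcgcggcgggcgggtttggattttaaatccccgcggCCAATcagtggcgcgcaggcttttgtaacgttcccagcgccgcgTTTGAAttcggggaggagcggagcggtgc
BUB1B: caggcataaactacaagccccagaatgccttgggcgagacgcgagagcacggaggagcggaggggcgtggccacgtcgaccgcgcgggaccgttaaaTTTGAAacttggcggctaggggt
CENPA: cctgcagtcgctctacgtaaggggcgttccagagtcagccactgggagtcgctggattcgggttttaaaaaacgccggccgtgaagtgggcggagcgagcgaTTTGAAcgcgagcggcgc
KIF23: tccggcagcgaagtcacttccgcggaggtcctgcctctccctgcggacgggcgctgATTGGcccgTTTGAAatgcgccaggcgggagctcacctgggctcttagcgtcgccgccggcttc
SMC4: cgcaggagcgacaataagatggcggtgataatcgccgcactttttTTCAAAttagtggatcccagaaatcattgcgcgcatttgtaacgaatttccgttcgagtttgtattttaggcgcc

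These stretches lie at chr16:23678769-23678888 (PLK1), chr15:40160949-40161068 (BUB1B), chr2:26785936-26786055 (CENPA), chr15:69414229-69414348 (KIF23) and chr3:160399530-160399649 (SMC4). The CHR begins 29 bases before the start in PLK1, 23 in BUB1B, 18 in CENPA, 55 in KIF23 and 75 in SMC4, where it lies on the opposite strand. PLK1 and KIF23 also hold 1 CCAAT box each in the stretch shown. A match is a description of letters and not a measured binding site. CCNB1 and CCNA2 were among the 9 matched genes without a CHR in this window.

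The libraries also differed in makeup. A level of 1 TPM was reached by 12082 to 12630 genes, and read depth is unknown because TPM keeps none. The share of TPM on protein-coding genes was 81.2% and 81.6% in EV but 77.9% and 78.1% in sgKAT6A. RNA18SN5, an 18S ribosomal RNA symbol, stood at 340 TPM in sgKAT6A replicate 2 and at 10401 to 13751 TPM in the other libraries. KAT6A transcript was measured at 16.2 and 16.7 TPM (EV) and 12.2 and 10.8 TPM (sgKAT6A), a log2 difference of -0.48 ± 0.13 (SE) that did not pass the adjusted threshold; a transcript level does not measure editing. All 7 myeloid leukaemia markers checked (CD33, FLT3, MEIS1, HOXA9, MPO, SPI1 and PTPRC) were above 1 TPM in every library. Of markers of other lineages, CD2, CD3E, MS4A1, CD79A, COL1A1, COL1A2, DCN, EPCAM and KRT19 were under 1 TPM in every library, whereas CD3D (5.65 to 11.5 TPM), KRT8 (2.74 to 3.57 TPM), HBB (38.6 to 192 TPM) and HBA1 (67.3 to 201 TPM) were above it in every library. ALAS2 was above 1 TPM in some libraries.

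As a set, the mitotic genes were lower in the sgKAT6A libraries than in the EV libraries by a modest amount. Their summed expression was 1765 and 1930 TPM in EV replicates 1 and 2 and 1532 and 1615 TPM in sgKAT6A replicates 1 and 2. Both sgKAT6A sums were below both EV sums, and the sgKAT6A mean of 1573 ± 58.8 TPM was 14.8% under the EV mean of 1848 ± 117 TPM (SD, n = 2 each). The summed level of all 10788 protein-coding genes tested was 4.22% lower in sgKAT6A. For 26 of the 42 genes (61.9%) both sgKAT6A libraries were below both EV libraries, for 0 both were above, and for 16 the groups overlapped. Of all 12603 genes tested, 23.2% had both sgKAT6A libraries below and 14.4% had both above, and among 10788 protein-coding genes 25.1% had both below. With median-of-ratios scaling, 23 of the 42 genes were below and 0 above, beside 18.0% below and 18.3% above for all genes. With the TPM rescaled to protein-coding genes, 23 were again below and 0 above, beside 16.2% and 19.5%. The median difference of the 42 genes, sgKAT6A minus EV, was -0.20 on the log2(TPM + 1) scale, beside -0.016 for all genes tested and -0.027 for protein-coding genes. Without EV replicate 2 that median was -0.12. Leaving out 1 library moved the difference of 24 of the 42 genes by more than 1.5 times, and that of 18 by less.

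No single mitotic gene passed the test. With limma, a linear model with moderated variances, 0 of the 42 genes and 0% of all genes tested had a Benjamini-Hochberg adjusted p under 0.05, and the smallest adjusted p among the 42 was 0.784. At an unadjusted p under 0.05, 7 of the 42 were lower in sgKAT6A and 0 were higher, where 1.98% of all genes were lower and 1.67% higher. Those 7 were CCNB1, PLK1, BUB1, BUB1B, MAD2L1, KIF23 and SMC4. For 23 of the 42 genes the sgKAT6A mean was lower by more than the gap within either group, a pattern shown by 14.5% of all genes tested. With 2 libraries in each group, 0.333 is the smallest two-sided p that an exact permutation test allows.

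**Figure D1:**
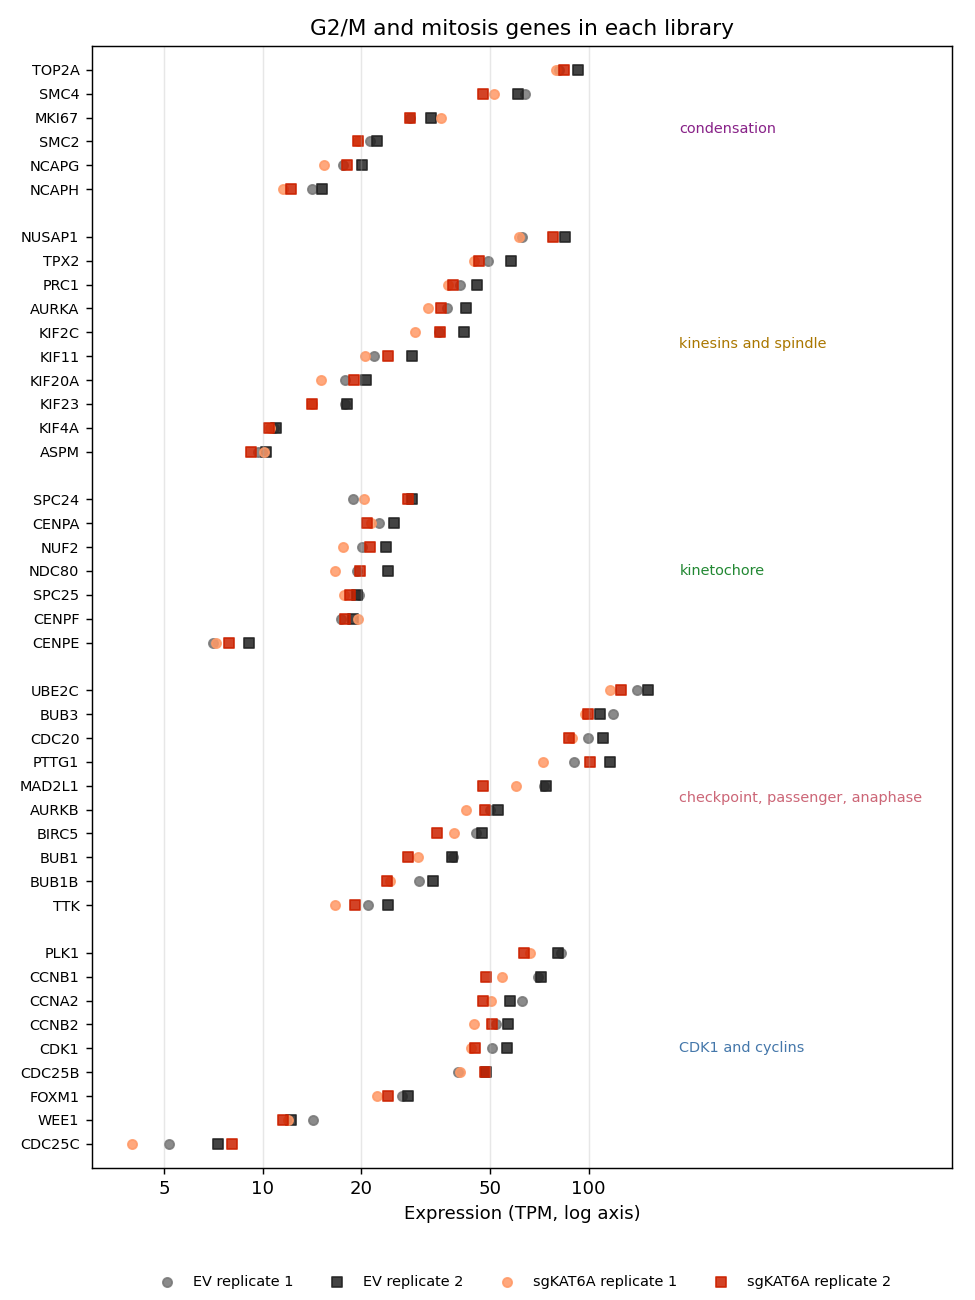
Expression in TPM (log axis) of each of the 42 genes in the 4 libraries, grouped by function and ordered by mean level within a group. The red and orange sgKAT6A points lie left of both grey and black EV points for 26 genes, while genes such as CDC25C, SPC24 and NUSAP1 spread more between libraries of 1 group than between groups.

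Of the genes of CDK1, its cyclins and their regulators, 7 of 9 were below without overlap (77.8%, beside 23.2% of all genes). Summed, these 9 genes were at 403 and 418 TPM in the EV libraries against 337 and 346 TPM in the sgKAT6A libraries. The groups were thus apart, and the median log2 difference of the 9 genes was -0.22.

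CCNB1, which encodes the mitotic cyclin B1, was measured at 69.9 and 71.3 TPM (EV) and 54.2 and 48.4 TPM (sgKAT6A). The EV libraries were nearly equal, and the sgKAT6A mean was 27.3% lower. On the log2 scale the groups differed by -0.46 ± 0.12 (SE), the 95% interval running from -0.79 to -0.12, and the adjusted p was 0.784 by limma. PLK1, the Polo-like kinase that promotes mitotic entry and spindle assembly, was at 82.4 and 80.8 TPM in the EV libraries against 65.9 and 63.2 TPM in the sgKAT6A libraries, a difference of -0.33 ± 0.11 (SE). The groups did not overlap here either.

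CDK1 itself was measured at 50.4 and 56.0 TPM (EV) and 43.5 and 44.9 TPM (sgKAT6A). Its cyclin A partner CCNA2 was at 62.3 and 57.4 TPM in the EV libraries against 50.3 and 47.5 TPM in the sgKAT6A libraries. Both lay apart by group, with log2 differences of -0.26 for CDK1 and -0.29 for CCNA2. CCNB2 (cyclin B2), FOXM1, the transcription factor that activates G2 and mitosis genes, and WEE1 were likewise lower in both sgKAT6A libraries, with log2 differences of -0.19, -0.22 and -0.16.

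CDC25B and CDC25C, phosphatases that activate CDK1, were the 2 of these 9 genes whose groups overlapped. CDC25B was measured at 39.6 and 48.4 TPM (EV) and 40.4 and 48.0 TPM (sgKAT6A). In both groups replicate 2 was the higher library, and the means differed by 0.01 on the log2 scale (95% interval -0.47 to 0.48). CDC25C, the gene with the lowest level of the 42, was at 5.16 and 7.31 TPM in the EV libraries against 3.98 and 8.05 TPM in the sgKAT6A libraries. Its 2 sgKAT6A libraries enclosed both EV libraries, and the interval of its log2 difference ran from -1.11 to 0.93.

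The spindle checkpoint, chromosomal passenger and anaphase genes were lower in both sgKAT6A libraries in 9 of 10 cases (90.0%, beside 23.2% of all genes). All 10 fitted differences were negative, as were those of 6624 of all 12603 genes tested. The median log2 difference of these 10 genes was -0.30. Their summed level was 708 and 758 TPM in EV and 587 and 614 TPM in sgKAT6A, a mean 18.0% lower. Genes of this group held the first 4 ranks of the 42 by mean TPM (UBE2C, BUB3, CDC20 and PTTG1), while TTK ranked 30.

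BUB1, the checkpoint kinase that recruits other checkpoint proteins to kinetochores, was measured at 38.3 and 38.1 TPM (EV) and 29.9 and 27.9 TPM (sgKAT6A). Its log2 difference was -0.39 ± 0.12 (SE), and the libraries of each group lay close together. BUB1B, which encodes BUBR1 of the mitotic checkpoint complex, was at 30.1 and 33.3 TPM in the EV libraries against 24.6 and 24.0 TPM in the sgKAT6A libraries. MAD2L1, which encodes the checkpoint protein MAD2 that sequesters CDC20, was measured at 73.1 and 74.1 TPM (EV) and 59.9 and 47.5 TPM (sgKAT6A). For MAD2L1 the fitted difference of -0.46 was the most negative of the 42, and the sgKAT6A libraries lay further apart than the EV libraries.

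BUB3, the checkpoint scaffold that binds BUB1 and BUBR1, was at 119 and 109 TPM in the EV libraries against 97.2 and 99.5 TPM in the sgKAT6A libraries. The kinase TTK (MPS1), which starts checkpoint signalling, was measured at 21.0 and 24.2 TPM (EV) and 16.7 and 19.2 TPM (sgKAT6A). Neither gene overlapped between groups. The chromosomal passenger genes AURKB, the Aurora B kinase, and BIRC5, which encodes survivin, had log2 differences of -0.19 and -0.34, also without overlap.

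UBE2C, the ubiquitin-conjugating enzyme that works with the anaphase-promoting complex, was the most highly expressed of the 42, at 141 and 152 TPM in the EV libraries against 116 and 126 TPM in the sgKAT6A libraries. CDC20, the activator of that complex, was measured at 99.6 and 111 TPM (EV) and 89.0 and 87.1 TPM (sgKAT6A). Both were lower in each sgKAT6A library than in each EV library. PTTG1, which encodes securin, the inhibitor of separase, overlapped: it was at 90.4 and 116 TPM in the EV libraries against 72.7 and 101 TPM in the sgKAT6A libraries. Reads of PTTG1 could be shared with its near-identical copies PTTG2, listed at 0 in all 4 libraries, and PTTG3P, listed at 0 in both EV libraries and as 0.12 and 0.13 TPM with sgKAT6A.

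Of the kinetochore and centromere genes, 2 of 7 were below without overlap (28.6%, beside 23.2% of all genes). Their summed level was 126 and 150 TPM in EV and 121 and 134 TPM in sgKAT6A, so that sgKAT6A replicate 2 lay between the EV libraries. The median log2 difference was -0.11.

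CENPA, the centromeric histone H3 variant, was measured at 22.8 and 25.3 TPM (EV) and 21.4 and 20.9 TPM (sgKAT6A). SPC25, a subunit of the NDC80 complex that couples kinetochores to microtubules, was the other gene without overlap, at 19.8 and 19.4 TPM in the EV libraries against 17.8 and 18.5 TPM in the sgKAT6A libraries. The log2 differences were -0.17 for CENPA and -0.11 for SPC25.

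The other NDC80 complex genes overlapped between groups. NDC80 was measured at 19.5 and 24.2 TPM (EV) and 16.7 and 19.9 TPM (sgKAT6A). NUF2 was at 20.1 and 24.0 TPM in the EV libraries against 17.7 and 21.4 TPM in the sgKAT6A libraries. SPC24 was measured at 19.0 and 28.8 TPM (EV) and 20.4 and 27.9 TPM (sgKAT6A). For all 3 genes the library labelled replicate 2 was the higher of its group, and for SPC24 the log2 gap between the EV libraries was 0.58 while the group difference was 0.03.

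CENPF, a large kinetochore and nuclear matrix protein, was at 17.4 and 19.0 TPM in the EV libraries against 19.7 and 17.8 TPM in the sgKAT6A libraries. CENPE, the kinesin that moves chromosomes to the spindle equator, was measured at 7.06 and 9.06 TPM (EV) and 7.19 and 7.91 TPM (sgKAT6A). For both genes sgKAT6A replicate 1 was above EV replicate 1.

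Kinesin and spindle genes were below without overlap in 5 of 10 cases, beside 23.2% of all genes. All 10 fitted differences were negative, as were those of 6624 of all 12603 genes tested. The median log2 difference of these 10 genes was -0.18. With the TPM rescaled to protein-coding genes, however, the differences of KIF4A and ASPM were 0.0023 and 0.012. Summed, these 10 genes were at 302 and 361 TPM in the EV libraries against 275 and 310 TPM in the sgKAT6A libraries. Here sgKAT6A replicate 2 exceeded EV replicate 1.

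KIF23, the kinesin of the central spindle that is needed for cytokinesis, was at 17.9 and 18.1 TPM in the EV libraries against 14.2 TPM in both sgKAT6A libraries. Its log2 difference was -0.33 ± 0.11 (SE), and the libraries of a group were nearly equal. TPX2, which activates Aurora A and nucleates spindle microtubules, was measured at 49.0 and 57.9 TPM (EV) and 44.5 and 46.3 TPM (sgKAT6A). AURKA, the Aurora A kinase, and PRC1, which bundles microtubules in the spindle midzone, were also lower in each sgKAT6A library, with log2 differences of -0.22 and -0.18. KIF4A, a chromosome-associated kinesin, lacked overlap with a difference of only -0.05.

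The remaining spindle genes overlapped between groups. NUSAP1, a microtubule-bundling protein, was at 62.7 and 84.8 TPM in the EV libraries against 61.3 and 77.8 TPM in the sgKAT6A libraries. Its EV libraries lay 0.43 apart on the log2 scale against a group difference of -0.08. KIF11, the motor that separates spindle poles, KIF20A, a kinesin of cytokinesis, and KIF2C, a microtubule depolymerase, had fitted differences of -0.16, -0.17 and -0.24 and were higher in replicate 2 than in replicate 1 of both groups. Leaving out sgKAT6A replicate 1 gave KIF20A a difference of -0.010, and leaving out sgKAT6A replicate 2 gave it -0.33. That of KIF2C was -0.12 without EV replicate 2 or without sgKAT6A replicate 1. That of KIF11 was 0.024 without EV replicate 2. ASPM, a spindle pole protein, was measured at 9.69 and 10.3 TPM (EV) and 10.1 and 9.21 TPM (sgKAT6A).

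Among the 6 chromosome condensation genes, 3 were below without overlap, beside 23.2% of all genes. The median log2 difference of the 6 genes was -0.16, beside -0.016 for all genes tested. SMC4, a core subunit of both condensins, was at 63.8 and 60.7 TPM in the EV libraries against 51.2 and 47.4 TPM in the sgKAT6A libraries, a difference of -0.33 ± 0.12 (SE). NCAPH, the kleisin subunit of condensin I, was measured at 14.2 and 15.2 TPM (EV) and 11.6 and 12.2 TPM (sgKAT6A). SMC2, the partner of SMC4, was at 21.3 and 22.5 TPM in the EV libraries against 19.6 TPM in both sgKAT6A libraries. These 3 condensin genes lay apart by group, whereas NCAPG, another condensin I subunit, overlapped with a difference of -0.17.

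TOP2A, the topoisomerase that untangles sister DNA, was at 80.9 and 92.7 TPM in the EV libraries against 79.2 and 84.1 TPM in the sgKAT6A libraries, and the groups overlapped. MKI67, which encodes the proliferation marker Ki-67, a coat of mitotic chromosomes, was measured at 28.3 and 32.8 TPM (EV) and 35.4 and 28.3 TPM (sgKAT6A). Here sgKAT6A replicate 1 was the highest library and sgKAT6A replicate 2 was level with the lower EV library. MKI67, CENPF, SPC24 and CDC25B were the 4 genes with a positive fitted difference, none above 0.06.

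**Figure D2:**
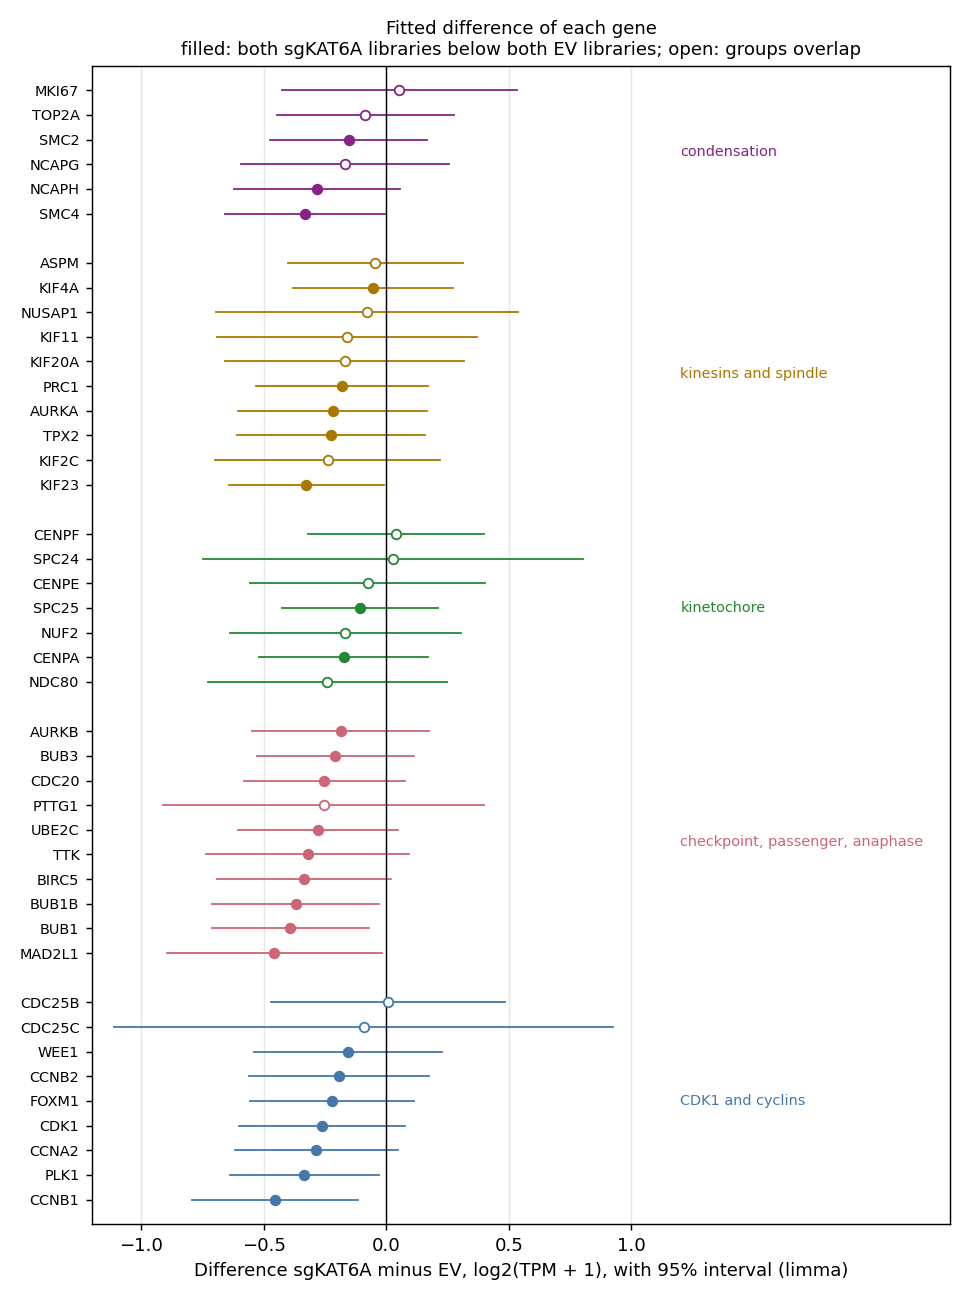
Fitted difference, sgKAT6A minus EV on the log2(TPM + 1) scale, of each gene with its 95% interval from limma, grouped by function. Filled points mark the 26 genes whose sgKAT6A libraries are both below both EV libraries, and the 16 open points mark genes whose groups overlap.

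Libraries of 1 group also differed from each other across these genes. EV replicate 2 was above EV replicate 1 for 35 of the 42 genes, with a median log2 gap of 0.15, and sgKAT6A replicate 2 was above sgKAT6A replicate 1 for 27, with a median of 0.06. Of all 12603 genes, 7552 and 5809 were higher in replicate 2 in the same order. The size of the difference varied with the libraries set against each other. sgKAT6A replicate 1 was below EV replicate 2 for 40 of the 42 genes, with a median of -0.33, while sgKAT6A replicate 2 was below EV replicate 1 for 28, with a median of -0.076. sgKAT6A replicate 1 was below EV replicate 1 for 36 genes, with a median of -0.22, and sgKAT6A replicate 2 was below EV replicate 2 for 41, also with a median of -0.22. Across all 12603 genes, the sgKAT6A library was the lower for 7494, 6234, 5764 and 7260 in the same order of pairs. The medians over all genes were -0.054, 0.0, 0.025 and -0.065.

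Transcript length moved with some of these differences. The 4 genes whose longest coding transcript in GENCODE 29 exceeds 8000 bases were CENPE (8612), CENPF (10307), ASPM (10887) and MKI67 (12678), and the groups overlapped in all 4. Of the other 38 genes, 26 were below without overlap. Of all 12603 genes tested, the groups overlapped in 7860 and 23.2% were below without overlap. sgKAT6A replicate 1 was above EV replicate 1 for 6 of the 42 genes, which were these 4 together with CDC25B and SPC24. Across the 42 genes, the Spearman correlation of length with the difference was 0.29 for sgKAT6A replicate 1 minus EV replicate 1 and 0.45 for sgKAT6A replicate 1 minus EV replicate 2. It was -0.01 and 0.06 for sgKAT6A replicate 2 minus EV replicates 1 and 2. Across 10766 protein-coding genes the same correlations were 0.21, 0.14, 0.05 and 0.02. These are descriptions across genes that share libraries, and the bound of 8000 bases was set after the values were seen. In the first of these pairs, sgKAT6A replicate 1 minus EV replicate 1, the 787 protein-coding genes over 8000 bases had a median of 0.18 and the 9979 others a median of 0.0008. With the trend on length removed from each library, 29 of the 42 genes were below without overlap, beside 19.3% below and 16.4% above among all 10766 genes of that fit, and the fitted differences of CENPF and MKI67 were -0.03 and -0.04.

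**Figure D3:**
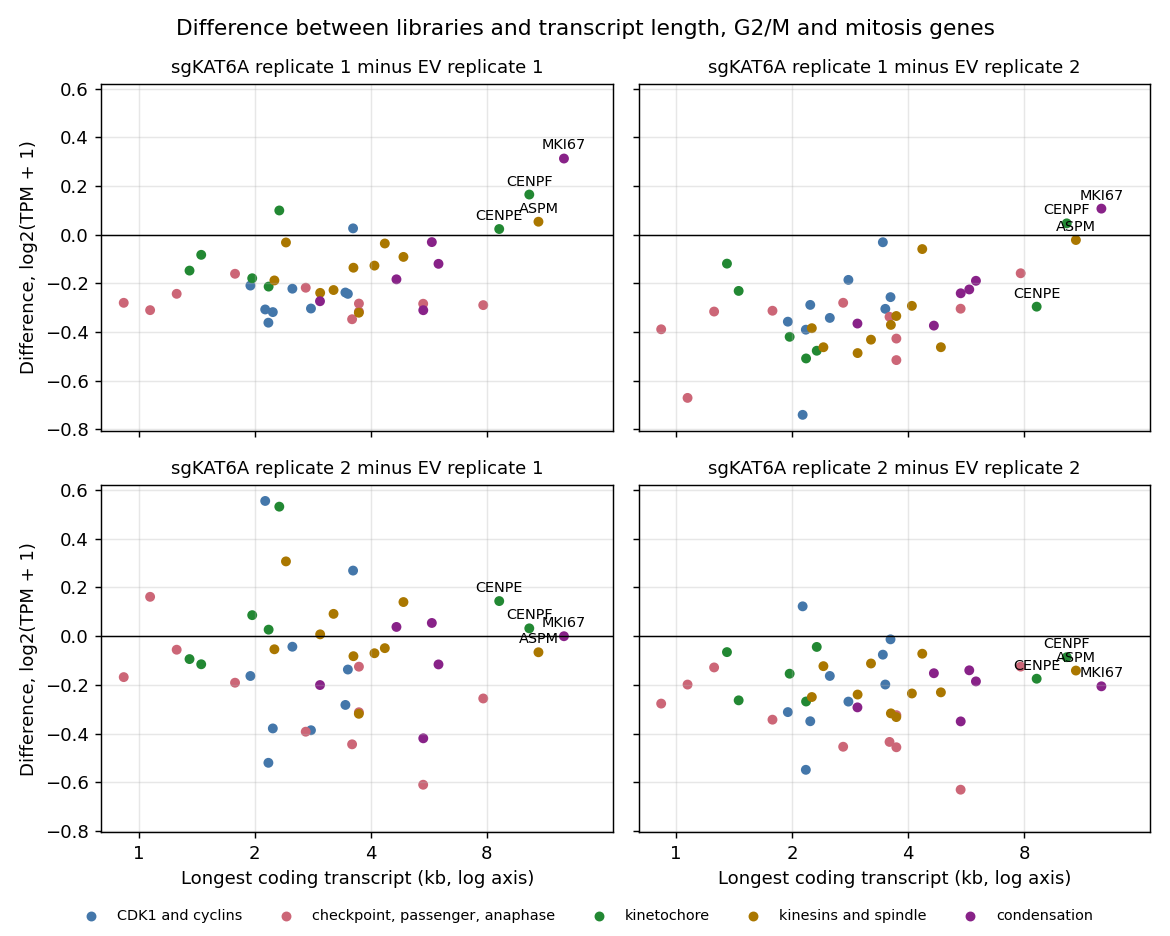
Difference in log2(TPM + 1) between each sgKAT6A library and each EV library for the 42 genes, against the length of the longest coding transcript (kb, log axis), coloured by function. MKI67, CENPF, CENPE and ASPM, at the right, are the longest, and all 4 lie above 0 in the panel of sgKAT6A replicate 1 minus EV replicate 1.

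The promoter motifs can be set beside the expression differences. The 25 genes with a CHR had a median log2 difference of -0.17, with 14 below without overlap, and the 9 without had -0.24, with 4 below. The 26 genes with CCAAT had a median of -0.18, with 15 below, and the 8 without had -0.20, with 3 below. Of all genes tested, 23.2% were below without overlap. AURKA, BUB3, TTK, BIRC5, FOXM1, UBE2C, TPX2 and WEE1, which had no promoter entry, are in neither split and were each below without overlap. The values by motif were not tested.

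Other genes of the same machinery, 113 in all and none among the 42, were also mostly lower in the sgKAT6A libraries. They were measured in the same libraries and listed with earlier results of these data known, so they are not independent of the 42. Both sgKAT6A libraries were below both EV libraries for 66 (58.4%, beside 23.2% of all genes) and above for 5 (4.42%, beside 14.4%). The median log2 difference of the 113 genes was -0.16. None passed at an adjusted p under 0.05 by limma (0% of all genes did). By the same test 6 were lower and 0 higher at an unadjusted p under 0.05, where 1.98% of all genes were lower and 1.67% higher.

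Of 17 genes of the CDK1 pathway and the MuvB complexes, 12 were below (70.6%, beside 23.2% of all genes) and 0 above (14.4% of all genes). MYBL2, the MYB protein that joins MuvB in S and G2 phase, was at 87.1 and 93.0 TPM in the EV libraries against 68.7 and 62.4 TPM in the sgKAT6A libraries. PKMYT1, a membrane-bound kinase that restrains CDK1 beside WEE1, was measured at 37.3 and 36.4 TPM (EV) and 29.1 and 25.0 TPM (sgKAT6A). Both lay apart by group by more than the gap within either group. CDC25A, the third CDC25 phosphatase, belongs to this list and was lower without overlap, at 18.1 and 14.4 TPM with EV against 13.03 and 8.49 TPM with sgKAT6A, a log2 difference of -0.57 ± 0.26 (SE). It is named after its value was seen, beside the overlap of CDC25B and CDC25C, and its adjusted p was 0.784 by limma.

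Of 10 partners of the checkpoint and passenger complex, 8 were below (80.0%, beside 23.2% of all genes) and 0 above (14.4% of all genes). TRIP13, the ATPase that remodels MAD2, was at 20.4 and 19.5 TPM in the EV libraries against 14.8 and 11.8 TPM in the sgKAT6A libraries, and ZWILCH, a subunit of the kinetochore complex that recruits dynein, at 18.0 and 18.1 against 14.4 and 13.7 TPM. For the anaphase-promoting complex and its regulators, 10 of 17 were below (58.8%) and 1 was above (5.88%). ANAPC15 and CDC23, subunits of that complex with the smallest p, had log2 differences of -0.34 and -0.32.

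Of 25 other kinetochore and centromere genes, 16 were below (64.0%, beside 23.2% of all genes) and 2 above (8.0%, beside 14.4%). Among the kinetochore and centromere genes described above, 2 of 7 were below, and this contrast was not tested. CENPW, an inner centromere protein, was measured at 48.9 and 50.5 TPM (EV) and 37.0 and 36.8 TPM (sgKAT6A). OIP5, which helps load CENPA, was at 17.9 and 17.8 TPM in the EV libraries against 13.6 and 13.7 TPM in the sgKAT6A libraries. The libraries of each group nearly coincided for both genes.

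Of 20 other kinesin, spindle and cytokinesis genes, 10 were below and 1 above (5.0%), with CKAP5 and KIF2A at -0.24 each. Of 16 cohesin and separase genes, 6 were below (37.5%, beside 23.2% of all genes) and 1 above (6.25%, beside 14.4%), with CDCA5 (sororin) at -0.30 and SGO1 (shugoshin) at -0.29. Of 8 other condensin and chromosome genes, 4 were below and 0 above, with the histone variant gene H2AZ1 and the condensin II gene NCAPD3 at -0.31 and -0.29. The 5 genes above without overlap were ANAPC16, NIPBL, NSL1, CENPT and NUMA1, named here after their values were seen.

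Genes of G1/S and DNA replication, the nearest neighbours in the cell cycle, were lower in sgKAT6A as well. Both sgKAT6A libraries were below for 33 of 40 (82.5%, beside 23.2% of all genes) and above for 0 (14.4% of all genes). Among the mitotic genes 26 of 42 were below (61.9%). The median log2 difference was -0.31 for the G1/S genes and -0.20 for the mitotic genes. The summed level of the G1/S genes was 20.4% lower in sgKAT6A, against 14.8% for the mitotic genes. In the median, sgKAT6A replicate 2 was 0.22 under sgKAT6A replicate 1 for the G1/S genes and 0.06 above it for the mitotic genes, on the log2 scale. The difference between the lists was not tested.

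**Figure D4:**
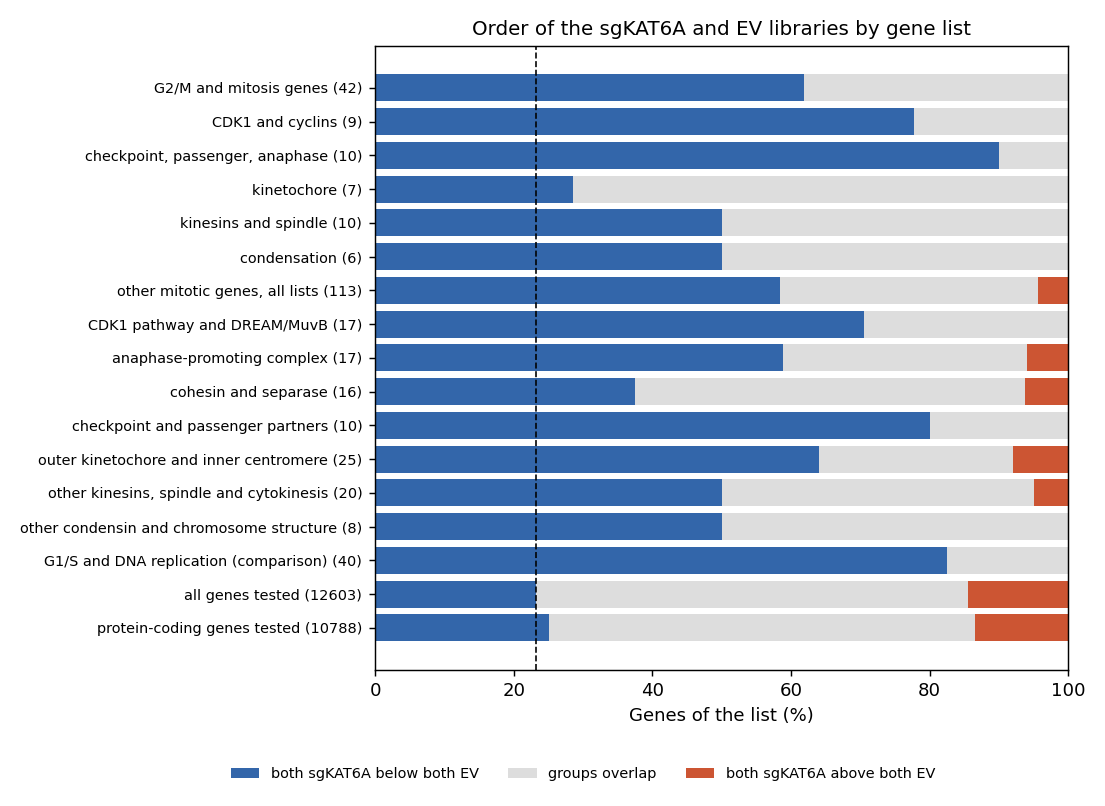
Share of each list (number of genes in brackets) with both sgKAT6A libraries below both EV libraries (blue), overlapping (grey) or above (red), with the share below among all genes tested as a dashed line. The checkpoint, passenger and anaphase genes reach 90.0% and the kinetochore genes 28.6%, close to the 23.2% of all genes.

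Monocyte and macrophage markers had the opposite order of the groups in their summed level. The 8 markers summed to 7083 and 8170 TPM in EV and to 11032 and 9714 TPM in sgKAT6A, nearly all of it LYZ, while MRC1 stayed under 1 TPM in every library. Of the 8, LYZ and CD86 were higher in both sgKAT6A libraries without overlap, 0 were lower, and 6 overlapped. Among all genes tested, 14.4% were higher and 23.2% lower in that way. CD86 was at 8.03 and 14.5 TPM with EV against 17.6 and 29.5 TPM with sgKAT6A. CD14 was measured at 1.08 and 29.3 TPM (EV) and 3.04 and 54.3 TPM (sgKAT6A), and the groups overlapped. Compared with the other library of the same group, 7 of the 8 markers were higher in EV replicate 2 and 6 of 8 in sgKAT6A replicate 2. Their part in the lower mitotic gene levels was not tested.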

How the data were processed

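Total RNA of 4 MOLM-13 samples was extracted and made into libraries commercially, per the labels' protocols. The authors deposited 1 table of TPM by gene symbol. The submitters' processing notes name Salmon and hg38; for its annotation, strand handling and filters the sources used here give nothing, so antisense and overlapping genes may share reads. Each library sums to 1000000 TPM, which keeps no depth, so no count model or counting interval was used.

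Samples were grouped by title. Values were used as log2(TPM + 1) for the 12603 genes whose mean reached 1 TPM, and fold changes on that scale understate those of low genes. The group comparison used limma 3.58.1 under R 4.3.3 (empirical Bayes with a mean-variance trend, two-sided, Benjamini-Hochberg adjustment over all genes tested, threshold 0.05). The code was also run on simulated data, with true changes larger than any difference fitted for the 42 mitotic genes. That run does not show whether differences as small as theirs could be found. Gene classes and promoters came from RefSeq (GRCh38.p14) by symbol, and transcript lengths from GENCODE 29, found for 42 of 42 mitotic and 10766 of 10788 protein-coding genes. H2AZ1 was found under its older symbol. Figures were drawn with matplotlib 3.10.9.

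Genes and lists were chosen with earlier results of these data known. Per functional group, values by library are given for the 2 genes with the highest mean TPM, the 2 with the smallest p and those whose sign differs from the group; others were added after their values were seen. From each further list, up to 2 genes with the smallest p are named. Alternatives were the pseudocount (0.1 or 5), the filter (none or a mean of 5 TPM), median-of-ratios, quantile or protein-coding scaling, each library left out, the replicate block, the variance trend and, added after seeing the data, removal of a trend on transcript length (loess, span 0.5). Some lineage markers that were checked are not reported here.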

Additional observations from a re-analysis of the deposited data

How the results depend on the processing

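The median of the 42 genes was negative under every alternative run on it. It was -0.20 as reported, -0.17 with median-of-ratios scaling, -0.16 with quantile normalization and -0.14 with protein-coding genes only. Leaving out 1 library gave -0.12 (without EV replicate 2) to -0.29 (without EV replicate 1). The number of genes below without overlap was 23 to 29 with all 4 libraries and 26 to 39 with 1 left out, when a group holds a single library and 33.1% to 44.1% of all genes are below. At an unadjusted p under 0.05 by limma, 7 of the 42 genes were lower as reported, beside 1.98% of all genes. It was 2 with protein-coding genes only, beside 0.96%, and 2 without the mean-variance trend, beside 1.56%. With quantile normalization 3 were lower, beside 1.43%, and with median-of-ratios scaling 4, beside 1.46%. With the length trend removed 4 were lower, beside 1.12%, and with no filter 14, beside 2.71%. Of the 42, none was higher at that p in these fits. All genes passing at that p in either direction were 3.64% as reported and 5.01% with no filter. With 1 library left out, the lone library of a group is assumed to vary like those of the other group. No gene of the 42 passed at an adjusted p under 0.05 by limma in any of these fits. Over all genes, 16 passed with no filter and 15 with the replicate block, against 0 as reported. The replicate block gave 13 of the 42 genes an unadjusted p under 0.05, when 19.2% of all genes had one (10.4% lower), and a smallest adjusted p of 0.179. The labels do not say that the numbers pair the libraries, although same-numbered libraries deviated together across genes (r = 0.45).

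Signs changed for 11 of the 42 genes, and 31 kept theirs in all 14 alternatives. With protein-coding genes only, KIF4A was at 0.0023 and ASPM at 0.012. With the length trend removed, CENPF was at -0.030 and MKI67 at -0.041. Leaving out 1 library moved 24 differences by over 1.5 times, 14 of them in genes whose sign held throughout. For genes whose sign changed, it gave ranges of -0.13 to 0.15 for CDC25B, -0.52 to 0.34 for CDC25C, -0.24 to 0.084 for CENPE, -0.027 to 0.11 for CENPF, -0.26 to 0.32 for SPC24, -0.35 to 0.024 for KIF11, -0.29 to 0.14 for NUSAP1, -0.10 to 0.016 for ASPM, -0.18 to 0.012 for TOP2A and -0.10 to 0.21 for MKI67. The cause was not tested. Depth is unknown, so it could not be said what it limits.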
